A study of Mus musculus with 130 samples.

Results

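Transcripts of 8 genes of mitochondrial iron use were followed in mouse liver across 5 diets and 114 strains. The genes were chosen by name for their function, with earlier results of these data known: Nfs1, Lyrm4, Iscu, Glrx5, Isca1, Isca2, Slc25a37 and Slc25a28. All 8 were matched to Ensembl identifiers among the 35274 genes of the diet table and the 35711 genes of the strain table. Each of the 8 also passed the filter on low counts in both tables.

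The samples were 130 livers of male mice, with ages not given in the sources used here. In the diet study, C57BL/6J mice received 1 of 5 diets, with 3 mice each: chow, a 50 ppm iron diet, a 500 ppm iron diet, 2% carbonyl iron, and 2% carbonyl iron with cellulose as the fibre source. In the panel, 115 mice of 114 strains received chow for 4 weeks and then 2% carbonyl iron for 6 weeks. Recombinant inbred strains made up most of the panel, with 56 of the BXD set, 20 AXB/BXA, 4 BXH and 3 CXB, and the last 31 were other inbred strains. Each panel strain was 1 mouse except 129X1/SvJ, which had 2, so a strain's value cannot be told apart from that of its mouse. No group in the panel lacked added iron. All animals of the diet study shared 1 genetic background, and the labels do not give the iron content of their chow.

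Iron-sulfur clusters are cofactors of iron and sulfide that respiratory complexes, aconitases and many DNA and tRNA enzymes need. They are built in the mitochondrial matrix on a scaffold protein, with sulfur taken from cysteine and iron brought in by carriers of the inner membrane, and are then handed on to the enzymes that use them. The liver stores much of the body's iron and has a high demand for clusters and haem.

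Nfs1 (chr2:156123639-156144186, minus strand) encodes the cysteine desulfurase that releases the sulfur, and Lyrm4 (chr13:35978395-36117526, minus strand) encodes ISD11, a small protein that holds the desulfurase in its stable form. Iscu (chr5:113772748-113778288, plus strand) encodes the scaffold. Glrx5 (chr12:105032688-105042906, plus strand) encodes the monothiol glutaredoxin that carries the new cluster onward. Isca1 (chr13:59755409-59769810, minus strand) and Isca2 (chr12:84773251-84775088, plus strand) encode A-type proteins that act in making 4Fe-4S clusters. Slc25a37 (chr14:69241848-69285112, minus strand) encodes mitoferrin-1, the iron carrier that erythroid cells rely on. Slc25a28 (chr19:43663801-43674881, minus strand) encodes mitoferrin-2, its widely expressed relative. All are annotated protein-coding genes, and all coordinates are GRCm38.

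Near-identical copies in the genome bear on several of these values, so they are shown first. Isca1, whose chosen transcript has 4 exons, has a single-exon copy on the same chromosome, AK157302 (chr13:21495223-21497146, plus strand), annotated as protein-coding. Over 1919 aligned bases the transcripts differed at 24 positions, 98.75% identical. Within the coding part they differed at 2, C31T and T36C, with Isca1's base first and positions counted from 1 at its coding start. The stretch from coding base 11 to 56 shows both differences in capitals. It lies at chr13:59769649-59769694 (minus strand) in Isca1 and at chr13:21495316-21495361 (plus strand) in the copy, each written 5′ to 3′ along its gene.
Isca1: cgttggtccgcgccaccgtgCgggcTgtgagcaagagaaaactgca
AK157302: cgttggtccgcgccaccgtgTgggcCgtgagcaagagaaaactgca

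Slc25a37 shares its start with the gene Gm16867 (chr14:69363504-69503362, minus strand). The first 382 transcript bases are identical, and they hold 210 of the 1014 coding bases of Slc25a37. These 210 bases of exon 1 lie at chr14:69284732-69284941 and again, with no difference, at chr14:69502982-69503191, 218041 bases apart. They are printed once, since no count of reads from this stretch alone can separate the pair.
Slc25a37 and Gm16867, shared coding part of exon 1: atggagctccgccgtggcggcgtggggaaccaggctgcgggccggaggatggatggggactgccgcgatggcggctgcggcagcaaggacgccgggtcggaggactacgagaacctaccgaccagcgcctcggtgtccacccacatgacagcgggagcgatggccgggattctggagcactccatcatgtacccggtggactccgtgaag

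Nfs1 overlaps 2 further genes, Gm28036 on its own strand, with which it shares 258 identical transcript bases, and Romo1 on the other strand. Lyrm4 overlaps Fars2, which lies on the other strand. Iscu has a processed pseudogene, Gm16437, 98.4% identical over 504 bases. The library kit keeps strand, but the strand setting of the counting is not given in the sources used here, so reads of such neighbours may not be fully separated.

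Promoters of 6 of the 8 members, 250 bases before to 50 after the start, were matched in RefSeq sequence of GRCm38.p6. The promoters of Nfs1 and Glrx5 are shown because these genes had the highest correlation of any pair across strains, given further on. Capitals mark matches, on either strand, to an ETS motif (CCGGAAG) or a CCAAT box (CCAAT). Nfs1's window is chr2:156144137-156144436 (minus strand) and that of Glrx5 is chr12:105032368-105032667 (plus strand). RefSeq places the start of Glrx5 upstream of the GENCODE start given above, so this whole window lies before the latter.
Nfs1 promoter: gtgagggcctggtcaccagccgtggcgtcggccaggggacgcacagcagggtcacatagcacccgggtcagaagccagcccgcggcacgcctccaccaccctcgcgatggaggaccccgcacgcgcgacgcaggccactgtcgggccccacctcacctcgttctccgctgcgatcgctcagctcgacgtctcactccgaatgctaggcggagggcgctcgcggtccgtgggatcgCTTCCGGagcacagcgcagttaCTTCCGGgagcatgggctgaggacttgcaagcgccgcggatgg
Glrx5 promoter: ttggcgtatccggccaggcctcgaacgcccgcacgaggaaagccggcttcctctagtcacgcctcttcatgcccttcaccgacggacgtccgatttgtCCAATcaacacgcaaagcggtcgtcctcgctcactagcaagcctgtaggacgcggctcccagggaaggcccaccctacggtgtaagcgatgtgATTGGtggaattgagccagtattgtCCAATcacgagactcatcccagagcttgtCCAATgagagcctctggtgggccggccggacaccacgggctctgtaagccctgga

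Nfs1 held 2 ETS matches and no CCAAT box, and Glrx5 held 4 CCAAT boxes and no ETS match, so the pair shared neither motif in these windows. Among the 6 promoters, ETS matches stood in 3 (Nfs1, Isca1, Isca2) against 8.86% of 32817 promoters. CCAAT stood in 4 (Glrx5, Isca1, Isca2, Slc25a28) against 37.4%. GGGCGG, the SP1 box, stood in 3 (Lyrm4, Isca2, Slc25a28) against 35.6% and the NRF1 motif in Isca1 alone against 4.59%. CACGTG, the E-box, stood in none of the 6 against 7.15%. GC content had a median of 52.7% over all promoters and was higher in each of the 6, up to 73.3% in Lyrm4. These matches describe letters only, searched on both strands.

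Levels can be compared between genes in TPM, which corrects for length. In the diet study the median over the 15 mice was 63.3 TPM for Iscu, 50.1 for Glrx5, 28.97 for Isca1, 24.9 for Isca2, 20.7 for Nfs1, 10.5 for Slc25a28, 7.4 for Slc25a37 and 2.7 for Lyrm4. The scaffold gene was thus the most abundant of the 8 and the ISD11 gene the least. The ranges over mice did not overlap between Glrx5 and Isca1, Nfs1 and Slc25a28, or Slc25a37 and Lyrm4. They overlapped for the other neighbours in this order, although Iscu exceeded Glrx5 and Slc25a28 exceeded Slc25a37 within all 15 livers. Isca1 exceeded Isca2, and Isca2 exceeded Nfs1, in 13 of 15 each.

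Changes with diet were tested on the counts with edgeR's quasi-likelihood test, with Benjamini-Hochberg adjustment over all 13560 genes tested, and a gene is called here at an adjusted p under 0.05. Values per mouse are CPM, the share of a library's counts on a common scale, adjusted with TMM factors. The labels name no separate cages or cohorts beyond the mice, so the p-values measure the spread between these mice.

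Against 50 ppm iron, 2% iron lowered 2 of the 8 transcripts, those of the desulfurase Nfs1 and the scaffold Iscu, by 19.4% and 17%. None was higher. Of all genes tested, 15.7% were called in this comparison, 1155 higher and 972 lower. The members' median log2 change was -0.16, against 0.01 over all genes. Against 500 ppm iron, Nfs1 alone was called, lower, where 11.3% of all genes were called. Against chow, 4 members were lower, Nfs1, Iscu, Glrx5 and Slc25a37, where 22.8% of all genes were called, and the members' median was -0.27. With cellulose as the fibre source, 2% iron against 50 ppm gave Nfs1 alone, lower, where 29.7% of all genes were called. At 29.7% the count of 1 in 8 was under the share over all genes, which counts calls in both directions.

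**Figure D1:**
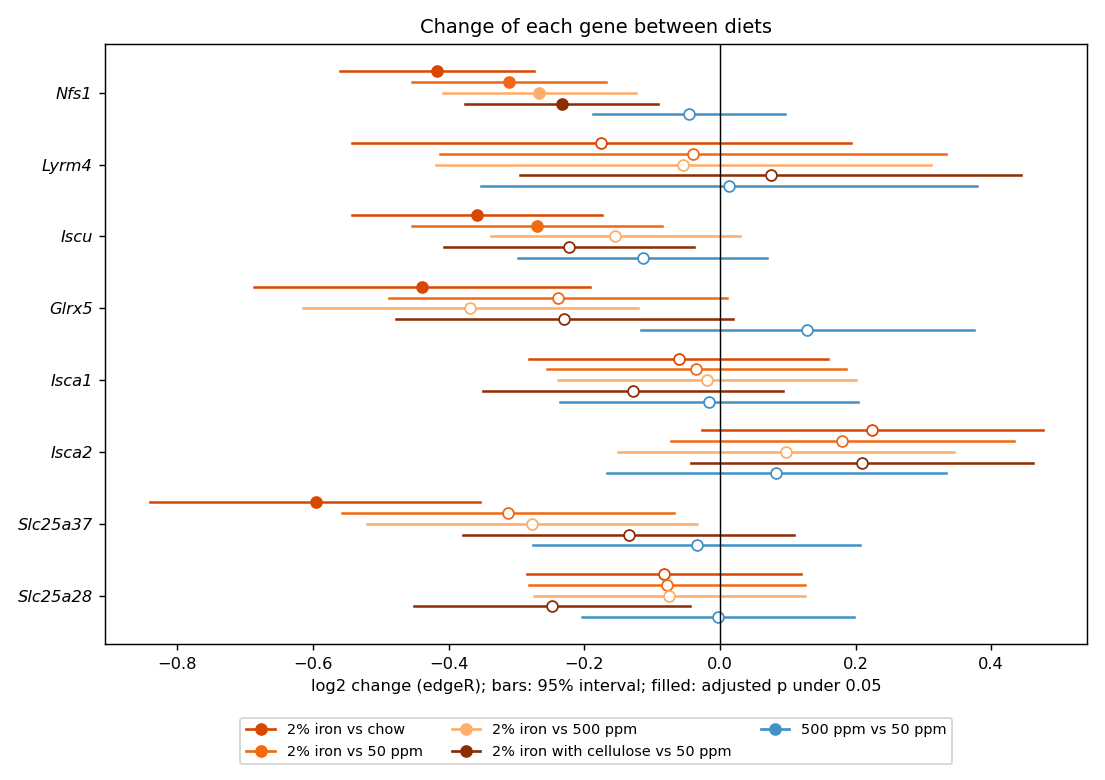
Log2 fold changes of the 8 members (points) with 95% intervals (lines) from edgeR, 1 colour per comparison and filled where the adjusted p was under 0.05. Nfs1 was lower in every comparison of a 2% iron diet with chow, 50 ppm or 500 ppm iron, and Isca2 lay above 0 in each of them without being called.

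Nfs1 gave 42.8, 44.1 and 41.5 CPM in the 3 chow mice and 38.6, 39.8 and 40.9 on 50 ppm. On 500 ppm the values were 39.3, 37.01 and 39.4. On 2% iron they were 32.5, 33.5 and 30.1, and with cellulose 35.02, 32.5 and 33.96. In CPM, all 6 mice on 2% iron, with or without cellulose, lay below all 9 mice of the other diets. In TPM they overlapped: values reached 19.27 on 2% iron and 21.45 with cellulose, and went down to 18.79 on 50 ppm. The log2 change of Nfs1 on 2% iron was -0.31 against 50 ppm (SE 0.067, edgeR adjusted p = 0.00731), a drop of 19.4% with a 95% interval of 11 to 27%. Against 500 ppm it was -0.27 (edgeR adjusted p = 0.0194) and against chow -0.42 (edgeR adjusted p = 0.000743). With cellulose, against 50 ppm, it was -0.23 (edgeR adjusted p = 0.0177).

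Limits of the Nfs1 calls lie in its overlap, in single mice and in the settings of the fit. With no filter on low counts, Nfs1 was not called against 500 ppm (edgeR adjusted p = 0.058) or with cellulose (0.0791). With only the 2 groups fitted it was again called in neither (0.0993 and 0.0597). Adding the counts of the overlapping Gm28036, 28.4 to 126 per diet library, left -0.18 against 50 ppm (edgeR adjusted p = 0.123), -0.12 against 500 ppm (0.32) and -0.15 with cellulose (0.145). Without 2% replicate 3, 500 ppm replicate 1 or 500 ppm replicate 3 the call against 500 ppm was lost (adjusted p up to 0.0873). Without cellulose replicate 2 or 50 ppm replicate 3 the cellulose call was lost (up to 0.0647). The calls against 50 ppm and chow held with each of the 15 mice left out.

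Lyrm4, the partner of Nfs1, was low and variable, between 3.47 and 5.61 CPM over the 15 mice. Its log2 change on 2% iron against 50 ppm was -0.04, with a 95% interval from -0.41 to 0.33 that also covers the change of Nfs1. In CPM its groups overlapped in the comparisons made, except that the chow mice all lay above those on 50 ppm.

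Iscu gave 53.4, 60.95 and 54.9 CPM on chow, 55.4, 49.1 and 54.6 on 50 ppm and 47.9, 48.1 and 51.1 on 500 ppm. On 2% iron it gave 47.1, 44.5 and 40.5, and with cellulose 49.2, 44.8 and 42.4. In CPM the 2% mice lay below all mice on chow, 50 ppm and 500 ppm, and the cellulose mice overlapped 50 ppm at 1 mouse. In TPM the 2% mice reached 63.34 and overlapped 50 ppm (from 63.26) and 500 ppm (from 58.89). Its log2 change on 2% iron was -0.27 against 50 ppm (edgeR adjusted p = 0.048) and -0.36 against chow (edgeR adjusted p = 0.0087). The first call stood at the threshold: it was kept in 5 of 15 fits with 1 mouse left out, those without 2% replicate 1, 50 ppm replicate 2, chow replicate 2 or cellulose replicates 1 or 3, and lost in the other 10 (adjusted p 0.0357 to 0.171 over all 15).

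Glrx5 gave 47.2, 57.6 and 46.3 CPM on chow, 48.8, 45.1 and 37.8 on 50 ppm and 46.4, 48.2 and 49.2 on 500 ppm. On 2% iron it gave 39.2, 36.6 and 35.6, and with cellulose 36.5, 42.7 and 33.04. The 2% mice lay below chow and 500 ppm and overlapped 50 ppm through 1 mouse of that group. The log2 change was -0.44 against chow (edgeR adjusted p = 0.0143) and -0.37 against 500 ppm (edgeR adjusted p = 0.0543). Without 2% replicate 3 or chow replicate 2 the chow call was lost (adjusted p up to 0.0694).

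Isca1 and Isca2 were called in no diet comparison. Isca1 ranged from 44.4 to 61.6 CPM over the 15 mice, and on 2% iron against 50 ppm its log2 change was -0.04 (95% interval -0.26 to 0.19). Isca2 ranged from 12.9 to 19.5 CPM, and its log2 change was 0.18 (95% interval -0.07 to 0.43), the only member with a positive value. Isca1's copy AK157302 had at most 3.04 counts in any diet library, so it hardly enters these values.

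Slc25a37, the gene of mitoferrin-1, gave 39.4, 44.7 and 47.6 CPM on chow, 39.3, 33.5 and 35.6 on 50 ppm and 31.7, 36.4 and 37.5 on 500 ppm. On 2% iron it gave 27.4, 28.7 and 31.1, and with cellulose 37.9, 32.4 and 28.3. The 2% mice lay below chow, 50 ppm and 500 ppm, while the cellulose mice reached into all of these but chow. Its log2 change against chow was -0.60 (SE 0.113, edgeR adjusted p = 0.00232), a drop of 33.9% and the steepest of the 8. Against 50 ppm it was -0.31 (edgeR adjusted p = 0.081), and chow against 50 ppm gave 0.29 (edgeR adjusted p = 0.382). Gm16867, which shares its exon 1, held 55.6 to 132 counts per diet library.

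Slc25a28, the gene of mitoferrin-2, ranged from 12.1 to 15.95 CPM. Its log2 change was -0.08 on 2% iron against 50 ppm and -0.25 with cellulose (edgeR adjusted p = 0.0642). The cellulose mice lay below all those on 50 ppm in CPM. The TPM ratio of Slc25a37 to Slc25a28 was 0.853 ± 0.108 on chow, 0.723 ± 0.119 on 50 ppm, 0.677 ± 0.077 on 500 ppm, 0.623 ± 0.051 on 2% iron and 0.758 ± 0.142 with cellulose (SD, n = 3 each). The ratio on 2% iron lay below that of every chow mouse and overlapped the other diets.

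**Figure D2:**
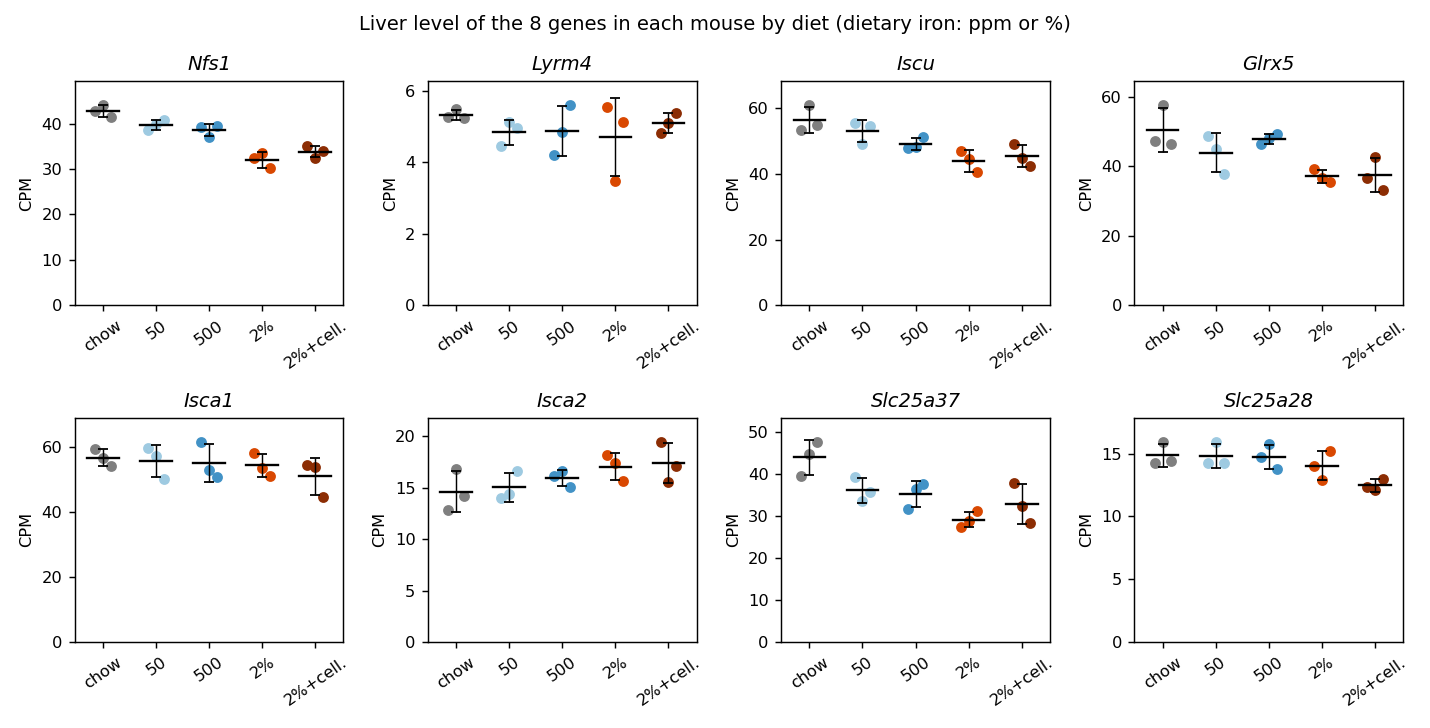
CPM of each member in each of the 15 diet mice (points) with the group mean (thick line) and SD (bars), 1 panel per gene. For Nfs1 all 6 mice on a 2% iron diet lie below the 9 others in CPM, though not in TPM. The groups of Lyrm4, Isca1 and Isca2 overlap on 2% iron and 50 ppm.

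No member was called between 500 ppm and 50 ppm, where 0% of all genes were called by edgeR, and no member had an unadjusted p under 0.05. Chow against 50 ppm also called 0 of 8 by edgeR, where 0.391% of all genes were called, with 1 member (Slc25a37) at an unadjusted p under 0.05. Cellulose against no cellulose on 2% iron called 0 of 8 by edgeR, where 0.0811% of all genes were called, again with 0 at an unadjusted p under 0.05. DESeq2 and limma also called 0 members in these 3 comparisons. The intervals stay wide: for Slc25a37 with cellulose against 2% iron the log2 change was 0.18, from -0.07 to 0.42. The comparisons share control mice, so their values stand side by side only.

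The calls were lost on the TPM scale. With limma on log2 CPM, which changes the test and keeps the TMM scaling, 2, 1, 4 and 1 members were called against 50 ppm, 500 ppm and chow and with cellulose, as with edgeR. With limma on log2(TPM + 1), 0 members were called in any diet comparison. There the log2 change against chow was -0.25 for Nfs1 (limma adjusted p = 0.157), -0.20 for Iscu (0.221), -0.31 for Glrx5 (0.074) and -0.36 for Slc25a37 (0.0779). The median over all genes then stood at 0.10 for 2% iron against chow and 0.11 for cellulose against 50 ppm, not near 0 as with TMM. The split of calls over all genes also differed from edgeR to limma on log2(TPM + 1): for 2% iron against 50 ppm from 1155 higher and 972 lower to 804 and 404, against 500 ppm from 894 and 644 to 680 and 230, against chow from 1607 and 1480 to 1381 and 564, and for cellulose against 50 ppm from 2083 and 1943 to 1957 and 700. With limma on log2 CPM these splits were 1205 and 1023, 936 and 646, 1661 and 1505, and 2092 and 2010. The cause of the lost calls was not tested.

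Other genes of the pathway were taken as 4 lists with 56 genes tested: assembly factors, mitochondrial iron and haem transport, the cytosolic assembly machinery, and enzymes that carry a cluster. On 2% iron against 50 ppm, 9 of 56 were lower and 0 higher, with a median log2 change of -0.14. That is 16.1% of the 56, near the 15.7% of all genes called. The latter share counts both directions, 1155 genes higher and 972 lower. Of 5 transport genes tested, Abcb10, an inner-membrane transporter needed for haem synthesis, was lower (-0.67, edgeR adjusted p = 0.00777), as was Slc25a38, a glycine carrier. Of 25 cluster enzymes 6 were lower: Aox3, Etfdh, Aco1, Dpyd, Lias and Ndufv2. Aox3, an aldehyde oxidase, had a log2 change of -1.58 (edgeR adjusted p = 0.00363). Aco1, the cytosolic aconitase that without its cluster acts as iron regulatory protein 1, had -0.42 (edgeR adjusted p = 0.00682).

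Against chow, 19 of 56 were lower and 0 higher, 33.9% where 22.8% of all genes were called, 1607 higher and 1480 lower. Among them were Fdx1, a ferredoxin gene, and Fdxr, the ferredoxin reductase gene, at -0.58 and -0.45 (edgeR adjusted p = 0.00649 and 0.0278). Fdx2, another ferredoxin gene among the assembly factors, was not called. Aox3 stood at -2.06 and Aco1 at -0.75, and the complex I genes Ndufv1, Ndufs8, Ndufv2 and Ndufs1 were each lower. The others were Abcb10, Dph1, Tmem14c, Dpyd, Lias, Sdhb, Bola3, Mocs1, Slc25a39, Cisd1 and Grpel1. Against 500 ppm, 5 were lower (Aox3, Abcb10, Aco1, Ndufv1 and Grpel1) and 1, the xanthine oxidoreductase gene Xdh, was higher (0.40, edgeR adjusted p = 0.0198), together 10.7% where 11.3% of all genes were called. With cellulose against 50 ppm, 16 were lower and 0 higher, among them Aox3, Dpyd, Abcb10, Tmem14c, Gfer, Cisd1, Mocs1, Ndufs8, Aco1, Ndufv2, Ndufv1, Bola3, Cisd2, Ndufs1 and Uqcrfs1. These 28.6% of the 56 were near the 29.7% of all genes called, but the latter held 2083 higher and 1943 lower. None of the 11 cytosolic assembly genes was called by edgeR in any diet comparison, with between 0 and 3 at an unadjusted p under 0.05. The other 3 comparisons called 0 of 56 by edgeR, with 2, 8 and 10 at an unadjusted p under 0.05 for 500 ppm against 50 ppm, chow against 50 ppm, and cellulose against 2% iron. On log2(TPM + 1), limma called 2 of 56 against 50 ppm, 2 against 500 ppm, 3 against chow and 6 with cellulose. Of all 13560 genes it called 1208, 910, 1945 and 2657 in the same order.

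Summed hepatocyte markers (Alb, Apoa1 and others) held at least 80070 CPM in each diet library. Other transcripts moved along with the members, and the hepatocyte sum was itself higher on 2% iron, at 105900 to 112200 CPM against 83540 to 97150 on 50 ppm, without overlap. Hamp, the hepcidin gene, and Bmp6, the bone morphogenetic protein that drives it, were higher on 2% iron than on 50 ppm, with log2 changes of 1.4 and 2.31 (edgeR adjusted p = 0.00761 and 0.000127). The summed CPM of 8 mitochondrial reference genes with no role in cluster assembly (Cs, Mdh2, Vdac1 and others) was 830 to 873 on 2% iron and 927 to 1020 on 50 ppm, without overlap, although 1 of the 8, Hspd1, was called. The macrophage marker sum was 611 to 648.5 on 2% iron against 152 to 287 over chow, 50 ppm and 500 ppm. The erythroid sum did not overlap either, at 24.6 to 35.2 on 2% iron, 50.7 to 91.3 on 50 ppm and 97.2 to 114 on chow, the same direction as Slc25a37. The defining erythroid marker Gata1 was at 0 in 10 of the 15 libraries, and the sum rested mostly on Alas2 (9.58 to 107.6 CPM). The endothelial sum was 262 to 285 on 2% iron and 186.3 to 229.4 on 50 ppm, and the neutrophil sum 6.93 to 16.7 and 2.035 to 2.9, neither with overlap. Globin sums were 301 to 447 on 2% iron and 8.09 to 110 over chow, 50 ppm and 500 ppm, the opposite direction to the erythroid sum. Their part in the members' results was not tested. In whole liver, fewer cells of a type and less RNA per cell cannot be told apart.

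Across the 114 strains, all on 2% iron, the widest range belonged to Slc25a37, from 4.31 TPM in NOD/ShiLtJ to 32.7 in BTBR T<+> tf/J, 7.57-fold. FVB/NJ followed at 24.1, and the next strain, BXD34/TyJ, at 16.96. BTBR T<+> tf/J and FVB/NJ also had the highest erythroid marker sums of the panel, 390.9 and 316.2 CPM, against a median of 25.8 over all libraries. Their part in the Slc25a37 values was not tested. The TPM ratio of Slc25a37 to Slc25a28 ran from 0.370 in BXA12/PgnJ to 2.56 in BTBR T<+> tf/J, and Slc25a28 was the higher of the pair in 60 of 115 libraries.

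Nfs1 ran from 15.6 TPM in BXD42/TyJ to 30.3 in KK/HlJ. Lyrm4 ran from 1.10 in AXB10/PgnJ to 5.23 in BXD21/TyJ. Iscu lay between 45 in C58/J and 88.3 in KK/HlJ, so that KK/HlJ had the highest level of both the desulfurase and the scaffold gene. Glrx5 ran from 29.6 in BXD42/TyJ to 78.0 in BXD12/TyJ. Isca1 ran from 11.4 in MRL/MpJ to 43.02 in BXH2/TyJ, and Isca2 from 17.2 in NZB/BlNJ to 37.9 in BXA4/PgnJ. Slc25a28 ran from 6.22 in NOD/ShiLtJ, which thus had the lowest level of both mitoferrin genes, to 17.2 in BXA12/PgnJ.

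The panel's own C57BL/6J mouse lay low for most members: at the 4.39th percentile of strains for Nfs1, 5.26th for Slc25a37, 6.14th for Glrx5, and no higher than the 11.4th for 7 of the 8. Lyrm4, at the 38.6th, was the exception. This was 1 mouse, and its mitochondrial reference sum lay at the 14th percentile and its macrophage sum at the 95.6th, whose part in the members' levels was not tested. The 3 C57BL/6J mice on 2% iron in the diet study had mean TPM of 30.14 for Isca1 and 10.76 for Slc25a28. These lay above the panel's strain medians of 29.42 and 10.49, where the panel mouse had 23.15 and 8.087. For the other members the diet means lay below the strain medians, from Iscu (58.66 against 60.57) to Slc25a37 (6.692 against 9.891). The 2 studies were not tested against each other. DBA/2J, the other parent of the BXD strains, had 13.7 TPM of Slc25a37 against 6.53 in C57BL/6J. The 2 mice of 129X1/SvJ had 7.41 and 6.41 TPM of Slc25a37 and 24.2 and 20.59 of Nfs1.

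**Figure D3:**
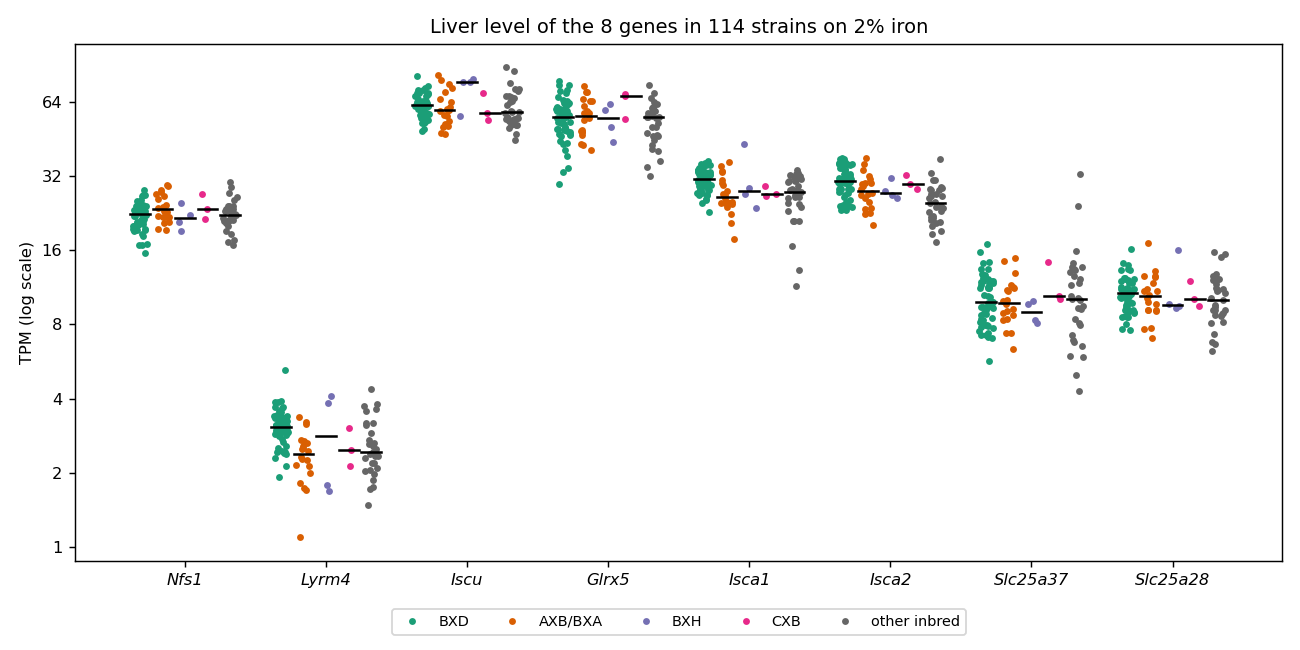
TPM of each member in the strains of the panel (points) by family, on a log axis, with the family median as a line. BTBR T<+> tf/J and FVB/NJ stand above the other strains for Slc25a37, and MRL/MpJ and LG/J lie lowest for Isca1.

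For 8 of 8 members the strains differed more, by SD of log2 CPM, than mice of 1 diet group did, by 1.37 times for Isca2 up to 3.12 times for Nfs1. The same held for 93.7% of 13410 genes, with a median of 1.66 times, so the count does not set the members apart. The within-group SD came from C57BL/6J in a separate table, and the ratio is a description.

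Between recombinant families, 3 members were called by edgeR, where 11.6% of 13794 genes were called. Lyrm4 had a lowest, median and highest value of 1.92, 3.06 and 5.23 TPM in 56 BXD strains and 1.10, 2.39 and 3.37 in 20 AXB/BXA strains. The families overlapped, but the BXD median lay nearer to the top of the AXB/BXA range. On the counts, Lyrm4 was higher in BXD than in AXB/BXA strains (log2 change 0.39, edgeR adjusted p = 2.34e-05), as was Isca1 (0.19, edgeR adjusted p = 0.000777), and Nfs1 was lower (-0.12, edgeR adjusted p = 0.0311). Isca2 stood at 0.11 (edgeR adjusted p = 0.0596), and with substrains averaged it was called (0.125, edgeR adjusted p = 0.034). With limma on log2(TPM + 1) the Nfs1 call was lost (-0.11, limma adjusted p = 0.148). With the counts of the copies added to each member, Lyrm4 alone was called: Isca1 moved to 0.07 (edgeR adjusted p = 0.297) and Nfs1 to -0.07 (0.211). Of the 56 pathway genes, Abcb10 and Glrx3 were higher in BXD strains and 6 were lower: Aox3 (-1.14, edgeR adjusted p = 0.00445), Ciao1, Slc25a38, Etfdh, Ndufs1 and Lias.

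The Isca1 copy was counted in some strains and not in others. AK157302 held 50 or more counts in 26 of 114 strains: in 0 of 56 BXD, 11 of 20 AXB/BXA, 1 of 4 BXH, 2 of 3 CXB and 12 of 31 other inbred strains. In the remaining 88 it held at most 6.43 counts. Isca1 had a median of 24.7 TPM in the 26 strains and 30.7 in the 88, and the sum of both genes had 29.2 and 30.8. In MRL/MpJ the pair had 11.4 TPM on Isca1 and 10.5 on the copy, and in LG/J 13.4 and 11.9, the lowest Isca1 values of the panel. Adding the copy narrowed the SD between strains of log2 CPM from 0.264 to 0.179. The 26 strains were split on a value of the copy, which shares nearly all its sequence with Isca1, so the 2 medians are a description. The printed pair of sequences shows how few bases in the coding part tell reads of one from the other.

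Gm16867 was likewise counted in part of the panel, with 50 or more counts in 14 strains: C57BL/6J, with 87.9, and 13 of 56 BXD strains. Of the 29 BXD strains with the RwwJ suffix 11 had it, and of the other 27 BXD strains 2, BXD19/TyJ and BXD33/TyJ. None of the AXB/BXA, BXH or CXB strains did. BXD strains with it had a median of 11.2 TPM of Slc25a37, and those without it 9.74. Adding the copy left the SD between strains nearly as it was, 0.389 and 0.396.

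**Figure D4:**
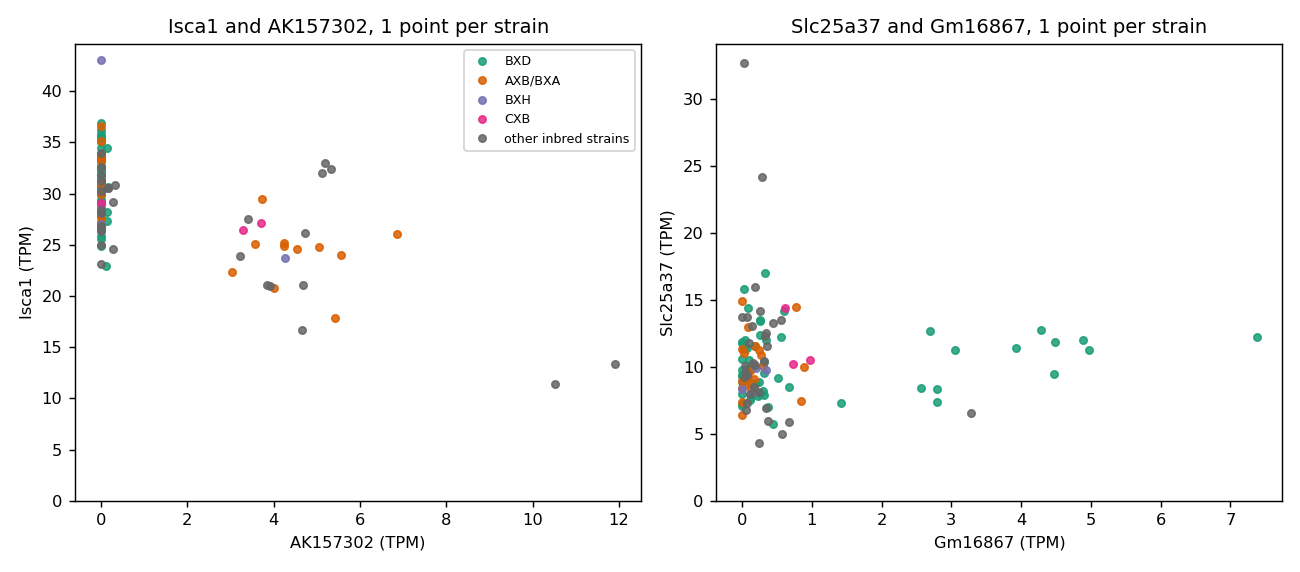
TPM of the member (vertical axis) against TPM of its copy (horizontal axis) in each strain (points, coloured by family), for Isca1 with AK157302 and Slc25a37 with Gm16867. The 26 strains where AK157302 is counted have a lower median of Isca1, down to MRL/MpJ at 11.4 TPM with 10.5 on the copy.

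Across strains the members' levels in log2 CPM were mostly positively related. Of 28 pairs, 16 passed an adjusted p under 0.05 (permutation test of Pearson's r with 100000 resamples, Benjamini-Hochberg over 76 relations), and all 16 were positive. The median r over the 28 pairs was 0.275. Over 11997 genes, the median r of gene pairs was -0.002 and 15.3% of pairs reached the lowest r of a passing member pair, 0.216. The strains share parents and are not independent draws. The highest was Nfs1 with Glrx5, at r = 0.512 and rho = 0.490 over 114 strains (permutation adjusted p = 9.5e-05), and r = 0.466 without the 2 strains farthest from the median. Nfs1 and Lyrm4, whose products bind each other, gave r = -0.056 and rho = -0.097 (permutation adjusted p = 0.626).

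Within families fewer pairs passed, adjusted over 84 relations in each. In the 56 BXD strains 3 did: Nfs1 with Glrx5 (r = 0.526), Nfs1 with Slc25a28 (0.523) and Glrx5 with Slc25a28 (0.346). In the 20 AXB/BXA strains 0 did by Pearson's or Spearman's permutation test, with 5 at an unadjusted p under 0.05 by Pearson's. In the 31 other inbred strains 7 did, all positive.

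Of 48 relations between a member and a marker sum or iron gene, 23 passed, 8 positive and 15 negative. How often other genes pass with the same sums and iron genes is not given here, so these counts do not set the members apart. The mitochondrial reference sum was positively related to Nfs1 (r = 0.612, rho = 0.598) and Glrx5 (r = 0.593, rho = 0.614), each with a permutation adjusted p of 9.5e-05, and r = 0.593 and 0.553 without the 2 farthest strains. It also passed with Slc25a28 (r = 0.449), Isca2 (0.436), Isca1 (0.302), Slc25a37 (0.291) and Iscu (0.238). Lyrm4 alone did not pass with it (r = 0.175, permutation adjusted p = 0.111). Within families, r with Nfs1 was 0.5 in BXD, 0.548 in AXB/BXA and 0.723 in the other inbred strains, and r with Glrx5 was 0.482, 0.484 and 0.725, the AXB/BXA values not passing (permutation adjusted p = 0.205 and 0.258). These values stood beside the r of 0.512 between Nfs1 and Glrx5, and the part of general mitochondrial content in that relation was not tested. Nfs1 was negatively related to Tfrc, the transferrin receptor gene that iron-poor cells stabilise (r = -0.440, rho = -0.441, permutation adjusted p = 9.5e-05). In BXD, AXB/BXA and other inbred strains this r was -0.454, -0.365 and -0.379, passing in BXD alone. Over all strains Tfrc was also negatively related to Isca2 (r = -0.302, permutation adjusted p = 0.00367) and Glrx5 (r = -0.257, permutation adjusted p = 0.0139). The macrophage sum was negatively related to 5 members, Slc25a28, Nfs1, Glrx5, Iscu and Slc25a37. For Slc25a28 the relation was the strongest of these (r = -0.443, rho = -0.474, permutation adjusted p = 9.5e-05), with r = -0.589, -0.280 and -0.402 in the same 3 families and again passing in BXD alone. For Nfs1 it was r = -0.414 and rho = -0.366 (permutation adjusted p = 0.000138), and -0.366, -0.680 and -0.468 in the families, passing in BXD and the other inbred strains. Glrx5 had r = -0.307, Iscu -0.245 and Slc25a37 -0.221. No member passed with Hamp, and the nearest was Nfs1 (r = 0.194, permutation adjusted p = 0.0731). Bmp6 was negatively related to Slc25a28 (r = -0.363) and Nfs1 (r = -0.350), and less strongly to Slc25a37 (-0.272), Glrx5 (-0.234), Lyrm4 (-0.232) and Iscu (-0.230). Isca1 and Isca2 did not pass with Bmp6. Slc25a37 with the erythroid sum gave r = 0.291 (permutation adjusted p = 0.00501) but rho = 0.116 and r = 0.138 without the 2 farthest strains, so the pooled r depended on those strains. In the other inbred strains r was 0.551 (permutation adjusted p = 0.0153), and 0.336 without the 2 farthest of that family. It was -0.036 in BXD and 0.235 in AXB/BXA, neither passing.

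**Figure D5:**
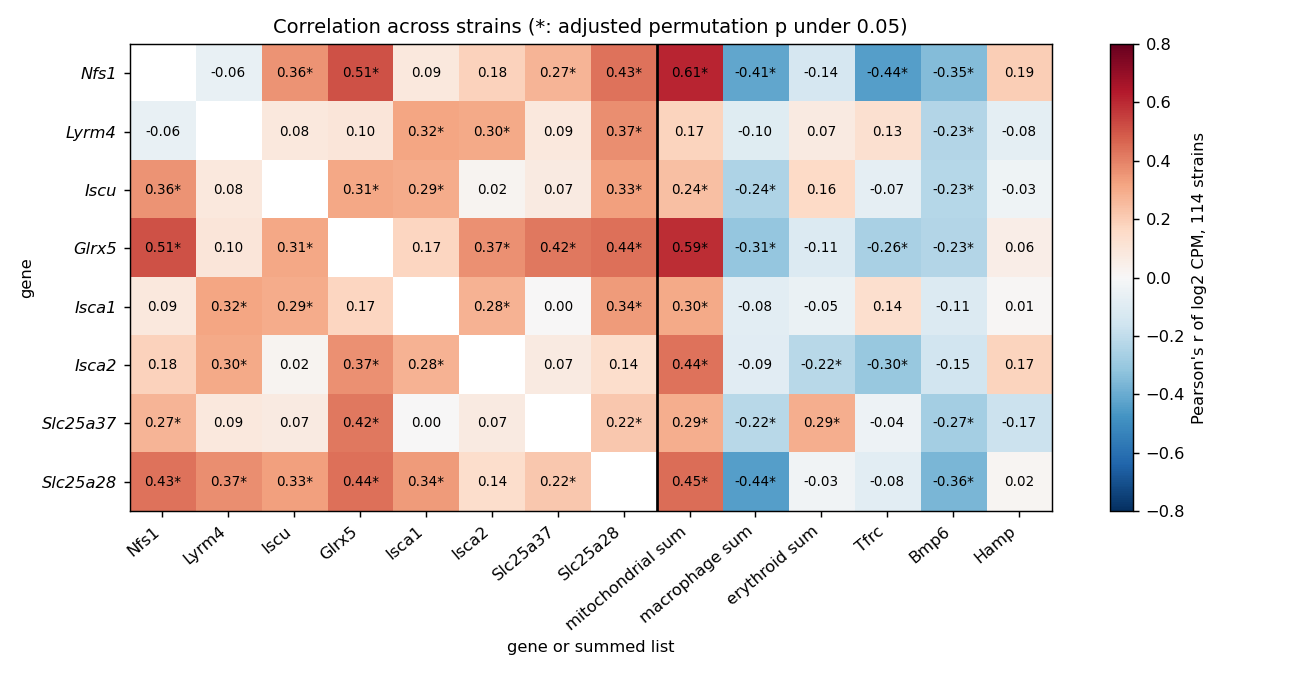
Pearson's r across 114 strains of log2 CPM between the members, and between each member and the marker sums and iron genes. The highest values are those of Nfs1 and Glrx5 with the mitochondrial reference sum, at 0.612 and 0.593, and the highest among pairs of members is Nfs1 with Glrx5 at 0.512.

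The genes whose levels over the 114 strains were most like a member's, by r of log2 CPM over 11997 genes are given here, 2 for each member. For Nfs1 they were Sod2, the manganese superoxide dismutase gene (r = 0.682, rho = 0.646), and Mrpl13, a mitochondrial ribosomal protein gene (r = 0.663). Glrx5 was closest to Phb2, the prohibitin-2 gene (r = 0.711, rho = 0.723), and Dlst, a subunit gene of 2-oxoglutarate dehydrogenase (r = 0.673). Iscu was closest to Tomm6 and Cox6a1 (r = 0.492 and 0.491), of the outer-membrane import pore and cytochrome oxidase. Lyrm4 was closest to Nop53 and Rpl17 (r = 0.507 and 0.506), and Isca1 to Mcur1 and Rpl14 (r = 0.520 and 0.507). Isca2 was closest to Serhl and Tlcd1 (r = 0.691 and 0.631). The mitoferrin genes had other neighbours, Dclre1a and Map2k3 for Slc25a37 (r = 0.595 and 0.581) and Atg2a and Psmf1 for Slc25a28 (r = 0.601 and 0.578). These are descriptions, chosen as the highest of many values.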

How the data were processed

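Liver RNA was sequenced after a stranded mRNA kit, per the labels. The authors deposited expected counts and TPM per gene, in separate tables for the diet study and the panel, and the submitters' processing notes name kallisto 0.46 and mm10. The 2 tables were tested apart. Symbols and coordinates came from GENCODE M21 (GRCm38). Library totals ran between 10.4 and 20.4 M counts for the 15 diet libraries and between 9.41 and 20.6 M for the panel.

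Expected counts were rounded to whole numbers and tested with edgeR 4.0.16 in R 4.3.3 (TMM, filterByExpr, glmQLFit and glmQLFTest), two-sided, with Benjamini-Hochberg adjustment over all genes. The 5 diet groups were fitted together, and BXD and AXB/BXA strains in a fit of their own with the strain as replicate. Log2 CPM used a prior count of 2. Relations used Pearson's r and Spearman's rho with 100000 permutations, two-sided, for which 1e-05 is the smallest p. The neutrophil sum fell into clusters over the panel and got no pooled r. Copies were found with blastn 2.17.0. Alternatives were DESeq2 1.42.0, limma 3.58.1 on log2(TPM + 1) and log2(TPM + 0.1), other scaling and filtering, each mouse left out, and, chosen after seeing the data, limma on log2 CPM and copies added to a member. The script's tests were checked on simulated data.

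The tests planned for whole counts were thus run on rounded values. The members and the gene lists were chosen with earlier results of these data known. Genes named are the members, list genes where called, and for each member the 2 named protein-coding genes with the highest r. Replicate numbers follow accession order and only name the mice. The library labelled BXD65 had 3.94 CPM of Y-linked transcripts, where the other 114 panel libraries had 118 to 328, although all mice are labelled male, and leaving it out changed no pair count. Some genes of the lists are not reported here by name.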

Additional observations from a re-analysis of the deposited data

How the results depend on the processing

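Of 1352 refits of a member in a comparison, 1293 kept direction and side of the threshold, 46 lost a call, 13 gained one and 0 reversed a call, while 55 changed sign in genes called in neither. Members called on 2% iron against 50 ppm numbered 2, but 0 with copies added, 0 with limma on log2(TPM + 0.1) or log2(TPM + 1), 1 with no filter and 1 with only the 2 groups fitted. Against 500 ppm the 1 call became 0 with copies added, with limma on either TPM scale and with no filter, and 2 with DESeq2 and with RLE size factors. With only the 2 groups fitted it stayed at 1, but Glrx5 (edgeR adjusted p = 0.0392) was called in place of Nfs1 (0.0993). Against chow the 4 calls became 0 with limma on either TPM scale. With cellulose against 50 ppm the 1 call became 0 with copies added, limma on either TPM scale, no filter and only the 2 groups fitted. Between BXD and AXB/BXA the 3 calls became 1 with copies added. With limma on log2 CPM each of these counts was as with edgeR. The cause of the changes was not tested.

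Pathway genes called with limma on log2(TPM + 1) numbered 2 in place of 9 against 50 ppm, 2 in place of 6 against 500 ppm, 3 in place of 19 against chow, 6 in place of 16 with cellulose and 1 in place of 8 between families. Over all genes it called 1208, 910, 1945 and 2657 of 13560 between diets, and 906 of 13794 between families. DESeq2 called 1 in place of 0 for chow against 50 ppm. Relations of members with markers and iron genes numbered 14 in place of 23 on log2(TPM + 1), while pairs of members numbered 24 in place of 16.

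Without 1 mouse at a time, members called ranged from 1 to 3 against 50 ppm, 0 to 2 against 500 ppm, 3 to 4 against chow, 0 to 2 with cellulose and stayed at 0 in the other 3 diet comparisons. Pathway genes ranged from 4 to 13, 2 to 9, 12 to 21 and 11 to 19 in the same order, and stayed at 0 in the others. No paired analysis was possible because the labels give no replicate numbers that link mice across diets. Depth limits Lyrm4 most, at 3.47 to 5.61 CPM.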
